A study of Mus musculus with 13 samples.

Results

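The miR-181 family was followed here in the mouse brain, in small RNA libraries from the hippocampus and the prefrontal cortex (PFC). Its members were all mature miRNAs that the deposited counts list under the hairpins mmu-mir-181a-1, mmu-mir-181a-2, mmu-mir-181b-1, mmu-mir-181b-2, mmu-mir-181c and mmu-mir-181d (named below without the species prefix), with both arms kept and each mature miRNA counted once. This gave 10 mature miRNAs, 4 of them 5p and 6 of them 3p arms, of the 1384 in the series, or 12 of 1514 pairs of a hairpin and a mature miRNA. All 10 were listed in each of the 13 libraries. The libraries came from FVB/N mice, labelled WT, and from TgR mice, which overexpress the human "readthrough" variant of acetylcholinesterase (hAChE-R) on the FVB/N background. There were 3 FVB/N and 4 TgR libraries of the PFC, and 3 FVB/N and 3 TgR libraries of the hippocampus. Each is numbered within its group, and only the PFC titles call the number an animal. The labels name no treatment, and age and sex of these animals are not given in the sources used here. The transgene is constitutive, under a minimal promoter-enhancer of cytomegalovirus, so its expression is not limited to a cell type by design. A small RNA library cannot show the transgene itself, and the genotype labels were taken as given.

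miRNAs are short RNAs that are cut as a duplex from a hairpin and guide the Argonaute proteins to mRNAs that pair with their seed, bases 2 to 8 counted from the 5′ end. Of the arms of a hairpin, the one kept in larger amounts is usually called the guide and the other the passenger. In the miR-181 family the 5p arms are the usual guides. miR-181a is best known from T lymphocytes, where it tunes the sensitivity of the T cell receptor, and in the brain the family is found in neurons and astrocytes and has been tied to the control of glutamate receptor subunits and of survival after ischemia.

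The 6 hairpins lie in 3 pairs (GRCm38 coordinates, with the genes of GENCODE M21). mir-181a-1 (chr1:137966455-137966541, plus strand) and mir-181b-1 (chr1:137966639-137966718, plus strand) are 97 bases apart, within introns of the non-coding transcripts Gm4258 and, on the other strand, Gm26936, and mir-181b-1 also overlaps an exon of the lincRNA A430106G13Rik. mir-181a-2 (chr2:38852735-38852810, plus strand) and mir-181b-2 (chr2:38853830-38853918, plus strand) are 1019 bases apart, in an intron of Nr6a1, a nuclear receptor gene on the opposite strand. On that strand mir-181b-2 also overlaps an exon of the annotated gene Gm44144. mir-181c (chr8:84178873-84178961, minus strand) and mir-181d (chr8:84178716-84178787, minus strand) are 85 bases apart, in an intron of Nanos3 on the same strand.

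The 5p arms are shown because they hold nearly all reads of the family and share their seed (mature sequences from RefSeq, GRCm38.p6, 5′ to 3′, seed in capitals).
miR-181a-5p: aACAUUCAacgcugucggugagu
miR-181b-5p: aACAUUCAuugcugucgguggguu
miR-181c-5p: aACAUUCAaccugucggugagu
miR-181d-5p: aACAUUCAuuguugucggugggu
No other of the 1679 mature mouse miRNAs searched had this seed. miR-181b-5p and miR-181d-5p differ by C12U (positions from 1 at the 5′ end, the base of the first named first) and by a last base that only miR-181b-5p has. miR-181a-5p and miR-181b-5p differ by A9U, C10U and A21G, again beside a last base of miR-181b-5p. miR-181c-5p lacks 1 base of miR-181a-5p and matches it at its other 22. A read that ends early still differs at base 12, so a mismatch there could move it between miR-181b-5p and miR-181d-5p. How the aligner shared such reads was not tested.

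The 3p arms are shown because they tell apart the hairpins whose 5p arms are identical (capitals as before).
miR-181a-1-3p: aCCAUCGAccguugauuguacc
miR-181a-2-3p: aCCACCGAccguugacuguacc
miR-181b-1-3p: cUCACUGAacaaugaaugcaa
miR-181b-2-3p: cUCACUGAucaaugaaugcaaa
miR-181c-3p: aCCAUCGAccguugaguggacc
miR-181d-3p: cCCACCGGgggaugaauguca
miR-181a-1-3p and miR-181c-3p have the seed CCAUCGA, and miR-181b-1-3p and miR-181b-2-3p have UCACUGA. miR-181a-1-3p differs from miR-181a-2-3p by U5C, inside the seed, and by U16C. The hairpins of miR-181a are shown with both arms in capitals, to show the same 5p arm beside different 3p arms (RefSeq, GRCm38.p6, at the positions above).
mir-181a-1: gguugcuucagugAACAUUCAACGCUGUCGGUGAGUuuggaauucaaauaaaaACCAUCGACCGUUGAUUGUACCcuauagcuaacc
mir-181a-2: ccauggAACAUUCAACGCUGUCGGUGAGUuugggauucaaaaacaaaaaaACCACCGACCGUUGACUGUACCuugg
The mature miR-181a-5p can come from mir-181a-1 or mir-181a-2, and its counts at these hairpins were equal in all 13 libraries. miR-181b-5p was listed with 1.46% to 3.31% fewer counts at mir-181b-1 than at mir-181b-2. The counts of these 5p arms thus do not separate the genomic pairs, and the level of each mature miRNA below is that of the hairpin with the larger total.

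With each mature miRNA counted once, a library held 5350259 to 11111883 counts (median 9420497), and the 10 members took 1.70% to 2.79% of them. Levels are given as CPM (a miRNA's counts relative to the library total, times 1000000), scaled between libraries by trimmed mean of M-values (TMM). At these depths 3 counts correspond to 0.27 to 0.561 CPM before the TMM scaling. Reads carry no molecular identifiers, so limits from depth speak of counting error alone. Within a group, no library was a copy of another (chi-square per degree of freedom of 47.9 or more).

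The family spanned more than 4 orders of magnitude on this scale. miR-181a-5p averaged 15563 CPM over the 13 libraries and had rank 13 of 1384 mature miRNAs by level. miR-181b-5p followed with 3302 CPM (rank 44), miR-181d-5p with 1502 CPM (rank 68) and miR-181c-5p with 326 CPM (rank 148). Every library had these 4 in the same order, and their ranges did not overlap. Among the passenger arms, miR-181a-1-3p averaged 130 CPM, miR-181c-3p 51.0 CPM and miR-181a-2-3p 17.8 CPM, also without overlap. miR-181b-1-3p averaged 4.18 CPM. miR-181d-3p (0.830 CPM) and miR-181b-2-3p (0.657 CPM) had 1 to 13 counts in each library and could not be ordered. The 5p arms held 98.9% to 99.3% of the CPM of the family, and miR-181a-5p alone was 73.3% to 77.1% of the 5p sum.

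**Figure D1:**
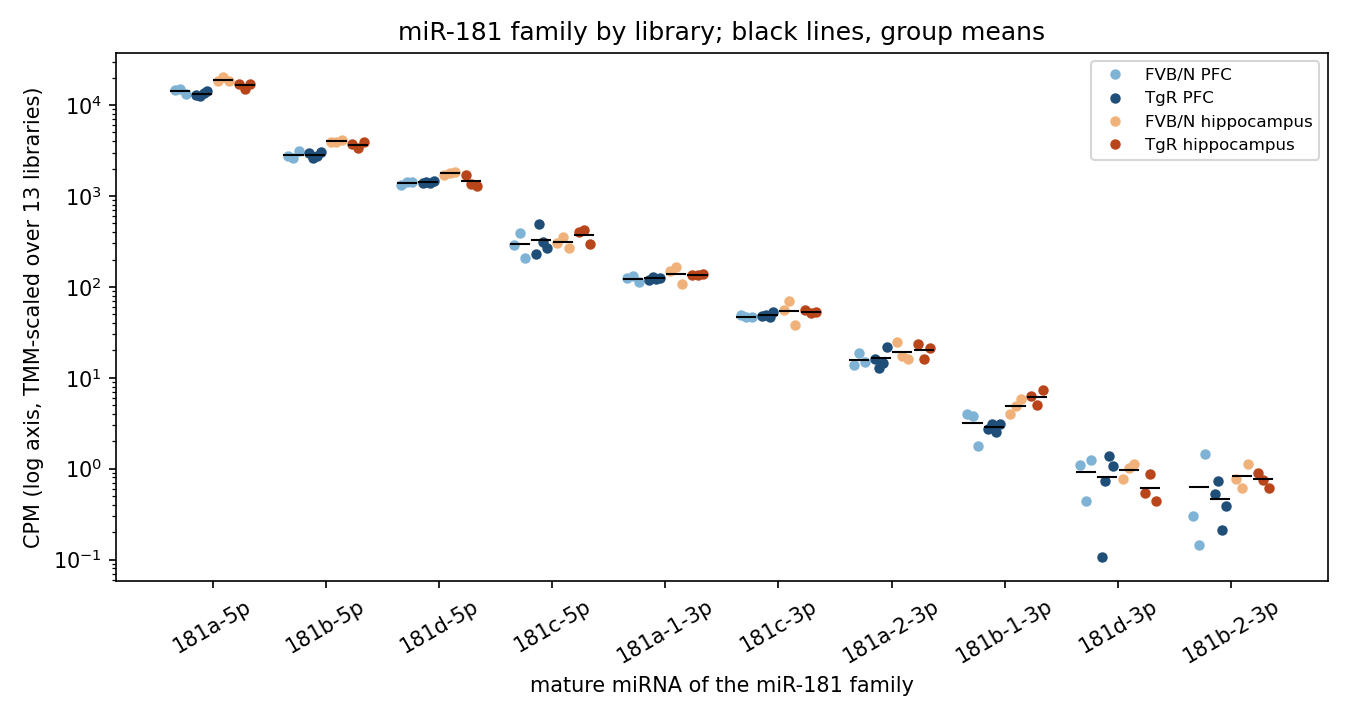
Level of the 10 mature miRNAs of the miR-181 family in each library (points, CPM on a log axis) by group, with group means as black lines. miR-181a-5p is highest, at 12508 to 20362 CPM, and miR-181d-3p (0.105 to 1.38 CPM) and miR-181b-2-3p (0.146 to 1.45 CPM) are lowest, and the points of the hippocampus lie above those of the PFC for miR-181a-5p and miR-181b-5p.

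The first comparison was between the regions. miR-181a-5p and miR-181b-5p, the most abundant guides of the family, were higher in the hippocampus than in the PFC, with no library of the PFC as high as any of the hippocampus. Tested within a genotype, miR-181a-5p passed in FVB/N and miR-181b-5p in both, and these calls hung on single libraries and on the processing. In the mean of both genotypes, a contrast added after the values had been seen, the calls of both members held under all 20 alternatives. miR-181d-5p and miR-181c-5p did not pass. Of the passenger arms only miR-181b-1-3p passed, in TgR and in the mean of both genotypes. No member was lower in the hippocampus by the test in either genotype.

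miR-181a-5p was at 18243, 20362 and 18531 CPM in the hippocampus of FVB/N mice and at 14519, 14947 and 13175 CPM in their PFC. In TgR mice it was at 17250, 15103 and 16973 CPM in the hippocampus and at 12839, 12508, 13414 and 14457 CPM in the PFC. The lowest library of the hippocampus was thus a TgR library and the highest of the PFC an FVB/N library, with a narrow gap between them. The log2 fold change of hippocampus against PFC was 0.42 in FVB/N (standard error (SE) 0.099, adjusted p = 0.0218, edgeR) and 0.31 in TgR (SE 0.093, adjusted p = 0.0508, edgeR). The TgR value missed the threshold of 0.05. In the mean of both genotypes it was 0.36 (95% interval 0.22 to 0.51, adjusted p = 0.00205, edgeR). The call in FVB/N was lost without any of the 3 FVB/N PFC libraries, without FVB/N hippocampus replicate 2 or 3 and without TgR hippocampus replicate 1 (adjusted p up to 0.0988, edgeR), with the log2 fold change between 0.35 and 0.46.

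miR-181b-5p was at 3956, 3898 and 4158 CPM in the hippocampus of FVB/N mice and at 2720, 2650 and 3139 CPM in their PFC. In TgR mice it was at 3725, 3349 and 3941 CPM in the hippocampus and at 2940, 2614, 2756 and 3085 CPM in the PFC. All 6 libraries of the hippocampus lay above all 7 of the PFC. Its log2 fold change was 0.50 in FVB/N (SE 0.11, adjusted p = 0.0173), 0.37 in TgR (SE 0.10, adjusted p = 0.0398) and 0.43 in the mean of both (95% interval 0.27 to 0.60, adjusted p = 0.00146, all from edgeR). The call within TgR was lost whichever of the 13 libraries was left out, with a log2 fold change of 0.26 to 0.39. With all libraries it was lost with DESeq2 too (adjusted p = 0.0696, DESeq2). Of 21 alternatives it held only with library size as the only scaling. The call within FVB/N was lost without FVB/N PFC replicate 1 or 2 or FVB/N hippocampus replicate 1 or 3 (adjusted p up to 0.0915, edgeR).

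miR-181d-5p, which shares its hairpin cluster with miR-181c, was at 1705, 1786 and 1813 CPM in the hippocampus of FVB/N mice against 1327, 1420 and 1443 CPM in their PFC. In TgR mice the hippocampus gave 1700, 1358 and 1300 CPM and the PFC 1403, 1412, 1390 and 1473 CPM. The FVB/N groups did not overlap, whereas in TgR only replicate 1 of the hippocampus lay above the PFC. The log2 fold change was 0.34 in FVB/N (SE 0.12, adjusted p = 0.0926) and 0.03 in TgR (SE 0.11, adjusted p = 0.891), and neither passed the test of edgeR. The mean of both genotypes was 0.19 (95% interval 0.02 to 0.36, adjusted p = 0.126, edgeR).

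miR-181c-5p varied more between libraries than the other guides. It was at 305, 358 and 265 CPM in the hippocampus of FVB/N mice, at 404, 427 and 297 CPM in that of TgR mice, at 287, 395 and 207 CPM in the FVB/N PFC and at 231, 489.5, 312 and 267 CPM in the TgR PFC. All groups overlapped, and the spread within the PFC (SD of 94.4 CPM for FVB/N, 115 CPM for TgR) exceeded the differences between the group means. The mean log2 fold change between regions was 0.14, with a 95% interval of -0.28 to 0.55, which does not leave out a difference as large as that of miR-181a-5p or miR-181b-5p.

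**Figure D2:**
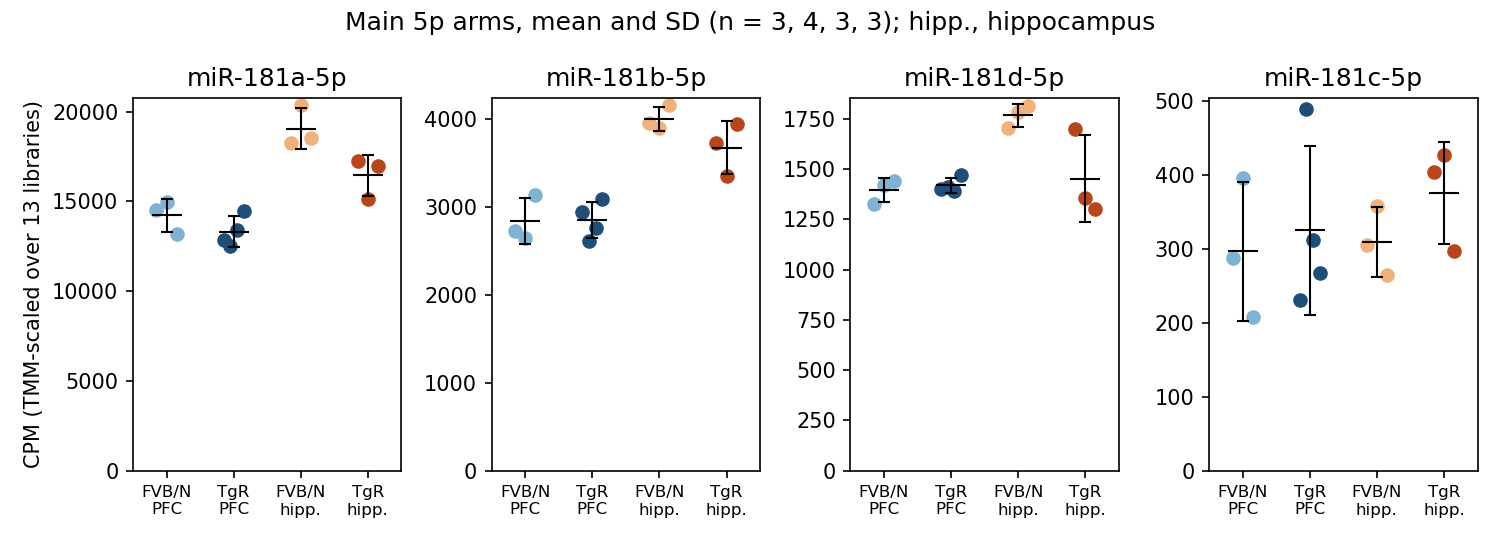
CPM of the 4 guide arms by group, with each library as a point and the mean and SD as bars (n = 3, 4, 3 and 3; axes start at 0). All hippocampus points of miR-181a-5p and miR-181b-5p lie above the PFC points, and those of miR-181c-5p overlap in all groups.

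The sum of the 4 guide arms, which offer the same seed to targets, was 25126 ± 1142 CPM in the FVB/N hippocampus (SD, n = 3), 21942 ± 1504 CPM in the TgR hippocampus (n = 3), 18743 ± 730 CPM in the FVB/N PFC (n = 3) and 17897 ± 986 CPM in the TgR PFC (n = 4). The sums of the hippocampus, from 20236 to 26404 CPM, lay above those of the PFC, from 17023 to 19412 CPM. Of this sum, miR-181a-5p was 75.8% and 74.9% in the FVB/N and TgR hippocampus and 75.8% and 74.3% in the PFC.

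The passenger arm miR-181b-1-3p, from the hairpin next to mir-181a-1, had 16 to 83 counts per library. It was at 3.95, 4.94 and 5.81 CPM in the FVB/N hippocampus, at 6.32, 4.99 and 7.33 CPM in the TgR hippocampus, at 3.97, 3.80 and 1.79 CPM in the FVB/N PFC and at 2.74, 3.09, 2.54 and 3.09 CPM in the TgR PFC. In TgR the groups did not overlap, and in FVB/N they overlapped narrowly. The log2 fold change between regions was 1.12 in TgR (SE 0.26, adjusted p = 0.0143), 0.62 in FVB/N (SE 0.29, adjusted p = 0.23) and 0.87 in the mean of both (95% interval 0.46 to 1.29, adjusted p = 0.00582, all from edgeR). The call in TgR was lost without TgR PFC replicate 3 or TgR hippocampus replicate 1 or 3 (log2 fold change of 0.93 to 1.12). The other passenger arm with that seed, miR-181b-2-3p, was too low for a test in any comparison.

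miR-181a-1-3p, the passenger of mir-181a-1, was at 140 ± 28.4 CPM in the FVB/N hippocampus against 123 ± 8.45 CPM in the PFC (SD, n = 3 each), and at 137 ± 2.90 (n = 3) against 124 ± 5.11 CPM (n = 4) in TgR. miR-181c-3p, the passenger of mir-181c, was at 54.7 ± 16.3 against 47.1 ± 1.63 CPM in FVB/N and at 53.6 ± 2.43 against 49.2 ± 2.62 CPM in TgR. The wide spread of the FVB/N hippocampus comes from replicate 3, where these arms were at 109 and 38.0 CPM, and from replicate 2, where they were at 164 and 70.5 CPM. In the mean of both genotypes the log2 fold change between regions was 0.17 for miR-181a-1-3p, 0.17 for miR-181c-3p and 0.30 for miR-181a-2-3p, and none of these 3 passed the test of edgeR (adjusted p of 0.246 to 0.419). These values moved with single libraries: without FVB/N hippocampus replicate 2 they were 0.08 for miR-181a-1-3p and 0.03 for miR-181c-3p, and without FVB/N hippocampus replicate 1 that of miR-181a-2-3p was 0.18. miR-181d-3p had a log2 fold change of -0.21 with a 95% interval of -1.07 to 0.66.

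Of the 9 tested members, 2 were called in FVB/N and 2 in TgR, all higher in the hippocampus. Over all 647 miRNAs tested, 7.57% were called in FVB/N (4.79% higher) and 10.2% in TgR (5.41% higher). In the mean of both genotypes 3 of 9 members were called, against 19.2% of all miRNAs (11.4% higher). Every hippocampus library lay above every PFC library for 4.33% of all miRNAs, among them miR-181a-5p and miR-181b-5p. Within FVB/N this held for 12.2% of all miRNAs and for 3 members (miR-181a-5p, miR-181b-5p and miR-181d-5p), and within TgR for 15% and 4 members (miR-181a-5p, miR-181b-5p, miR-181a-1-3p and miR-181b-1-3p). The median log2 fold change of the tested members was 0.28 in FVB/N, 0.21 in TgR and 0.19 in the mean, and that of all miRNAs was 0.02, 0.05 and 0.02.

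**Figure D3:**
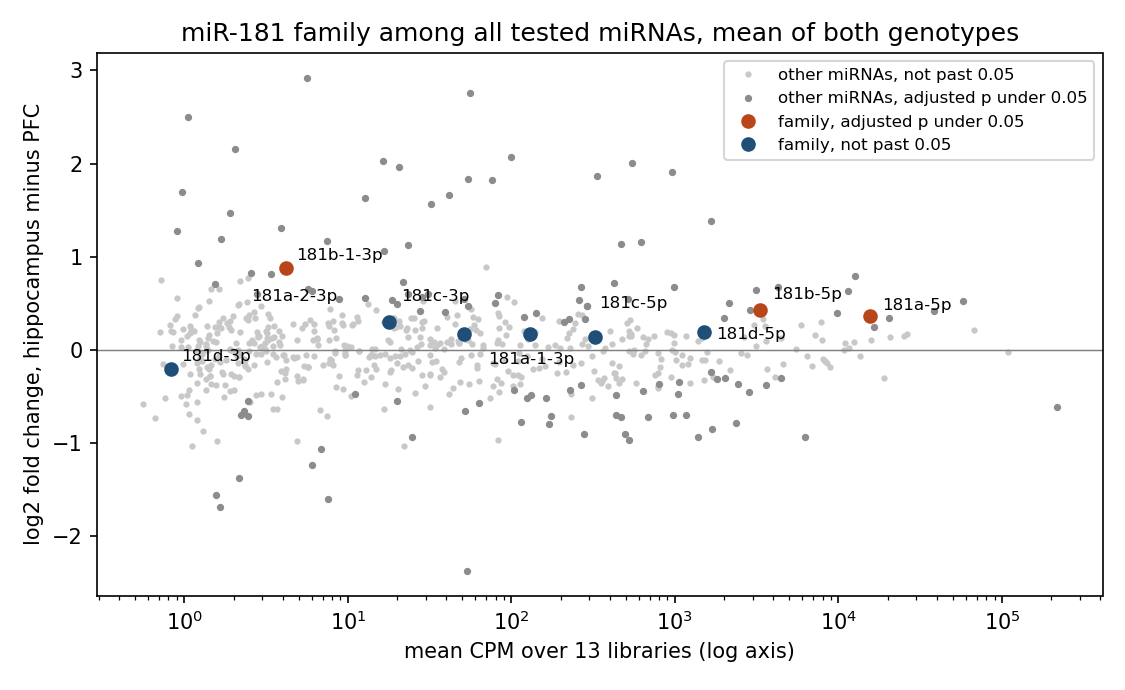
Mean log2 fold change of hippocampus against PFC over both genotypes (vertical) against mean CPM (log axis, horizontal) for the 647 tested miRNAs, with the family in colour. miR-181a-5p, miR-181b-5p and miR-181b-1-3p passed an adjusted p of 0.05, and the others of the family lie between -0.21 and 0.30 on the log2 scale.

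Markers of other cell types differed between the regions too. The 4 oligodendrocyte miRNAs (both arms of miR-338, miR-219a-5p and miR-219a-2-3p) were all higher in the hippocampus in the mean of both genotypes, by log2 fold changes of 1.14 to 1.91. Their summed level was 2256 to 3308 CPM in the FVB/N hippocampus and 2992 to 4864 CPM in the TgR hippocampus, against 1089 to 1435 CPM and 1012 to 1221 CPM in the PFC, and none was at 0 in any library. Of the 10 neuronal miRNAs 3 were lower in the hippocampus (miR-128-3p, miR-132-3p and miR-212-3p) and 1 was higher (miR-218-5p). The neuronal sum was 309990 to 375310 CPM in the hippocampus and 368170 to 460410 CPM in the PFC. Its largest parts were miR-128-3p (142360 to 295755 CPM over all libraries) and miR-9-5p (93445 to 115912 CPM), so it mostly does not follow the rest of the list. Of the white blood cell list 3 of 4 were lower (miR-142a-3p, miR-142a-5p and miR-223-3p), and none of the 4 vascular miRNAs was called. Of the 5 tested choroid plexus miRNAs 3 were higher in the mean of both genotypes (miR-204-5p, miR-448-3p and miR-1298-5p). Within a genotype, 0 of these 5 were called in FVB/N and 4 were higher in TgR. The list summed to 1361 to 2010 CPM in the FVB/N hippocampus and 1988 to 8545 CPM in the TgR hippocampus. In the PFC it summed to 894 to 1266 CPM in FVB/N and 957 to 1329 CPM in TgR. Of the 5 red blood cell miRNAs 3 were lower in the mean of both genotypes (miR-144-3p, miR-144-5p and miR-451a). Within a genotype, 0 were called in FVB/N and 3 were lower in TgR. Their sums were 2223 to 2337 CPM in the FVB/N hippocampus and 990 to 1390 CPM in the TgR hippocampus. In the PFC these sums were 2013 to 3010 CPM in FVB/N and 2229 to 4183 CPM in TgR. The part of these markers in the family's difference between regions was not tested. In bulk tissue, fewer cells of a type and less RNA per cell cannot be told apart.

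The second comparison was between TgR and FVB/N mice, the main contrast of the study. No member of the family passed the test in either region. In the hippocampus 3 of the 4 guides had a lower mean in TgR, and in the PFC the groups overlapped for every tested member.

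In the hippocampus 8 members were tested and 0 were called by edgeR (1 with an unadjusted p under 0.05, and 0 called or under that value by DESeq2). Of all 619 miRNAs 4.85% were called, and 17.4% had an unadjusted p under 0.05. miR-181d-5p averaged 1453 ± 216 CPM in TgR and 1768 ± 56.3 CPM in FVB/N (SD, n = 3 each), with the highest TgR library (1700 CPM) just below the lowest FVB/N library (1705 CPM). Its log2 fold change was -0.30 (SE 0.14, unadjusted p = 0.0495, adjusted p = 0.282, edgeR). miR-181a-5p averaged 16442 ± 1168 against 19045 ± 1150 CPM, likewise without overlap, with a log2 fold change of -0.23 (95% interval -0.47 to 0.01, adjusted p = 0.293, edgeR). Such a separation to the lower side was found for 11% of all miRNAs in this comparison. miR-181b-5p (log2 fold change -0.15) and miR-181c-5p (0.27) overlapped between the genotypes. With library size as the only scaling, the median of all miRNAs moved from 0.00 to 0.10 and that of the tested members from -0.05 to 0.04, while miR-181a-5p and miR-181d-5p kept their sign.

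In the hippocampus of TgR mice 4 of the 5 tested choroid plexus miRNAs were higher than in FVB/N (miR-204-5p, miR-448-3p, miR-1264-3p and miR-1298-5p), and their list summed to 1988 to 8545 CPM against 1361 to 2010 CPM. miR-1912-3p of that list was at 0 in 1 library. Of the red blood cell miRNAs 4 of 5 were lower (miR-144-5p, miR-451a, miR-486a-5p and miR-486b-5p), with sums of 990 to 1390 CPM against 2223 to 2337 CPM. Of the oligodendrocyte list miR-338-3p was higher, with a log2 fold change of 0.60. Whether these marker levels bear on the values of the family was not tested.

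In the PFC 9 members were tested and 0 were called, nor did any have an unadjusted p under 0.05 by edgeR or DESeq2. Over all 628 miRNAs 0.159% were called, and 3.18% had an unadjusted p under 0.05. The log2 fold changes ran from -0.20 for miR-181d-3p to 0.13 for miR-181c-5p. The intervals of the abundant guides were narrow: -0.31 to 0.11 for miR-181a-5p, -0.24 to 0.24 for miR-181b-5p and -0.19 to 0.23 for miR-181d-5p. That of miR-181c-5p ran from -0.56 to 0.82.

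**Figure D4:**
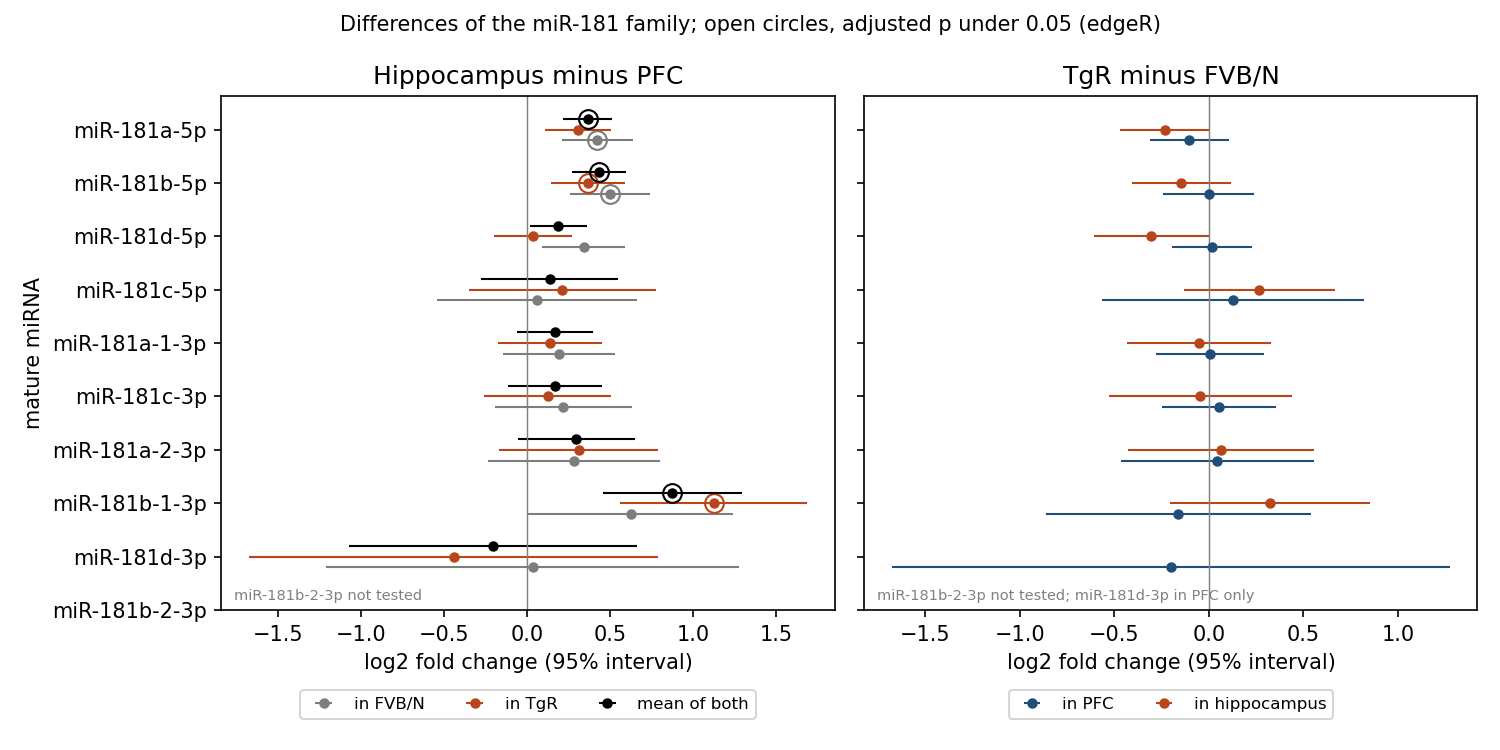
Log2 fold changes of the tested members with 95% intervals, for hippocampus against PFC (left) and TgR against FVB/N (right), with open circles at an adjusted p under 0.05 (edgeR). miR-181a-5p and miR-181b-5p lie right of 0 between regions, and no genotype difference is circled.

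The third comparison asked whether the difference between genotypes differed between the regions. Of the 9 tested members 0 were called by edgeR, with 0 under an unadjusted p of 0.05 by edgeR or DESeq2, where 0.464% of all 647 miRNAs were called and 8.5% had such an unadjusted p. miR-181d-5p came nearest, with a difference of -0.31 on the log2 scale (95% interval -0.65 to 0.04, unadjusted p = 0.0764, adjusted p = 0.629, edgeR). The difference for miR-181b-1-3p was 0.50 (95% interval -0.34 to 1.33), and for miR-181a-5p and miR-181b-5p it was -0.12 and -0.13.

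Ratios of members within a library do not depend on the scaling, and they compare the arms of a hairpin or the hairpins of a pair of paralogs. The ratio miR-181a-1-3p/miR-181a-2-3p contrasts the chromosome 1 hairpin with the chromosome 2 hairpin by their own 3p arms. Its median was 6.83 in the FVB/N hippocampus, 6.56 in the TgR hippocampus, 7.59 in the FVB/N PFC and 7.82 in the TgR PFC, and its range over all libraries was 5.80 to 10.2. miR-181a-1-3p was thus the larger of both in every library. Neither the difference between regions (-0.14 on the log2 scale, adjusted p = 0.651, exact permutation test) nor that between genotypes (-0.06, adjusted p = 0.857, exact permutation test) passed.

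The ratio of guide to passenger of mir-181a-1, miR-181a-5p/miR-181a-1-3p, was 123.5, 124.1 and 170.3 in the FVB/N hippocampus and 126.7, 112.8 and 121.5 in that of TgR mice. In the PFC it was 117.1, 114.5 and 115.8 in FVB/N and 109.1, 96.44, 109.3 and 114.8 in TgR. Within FVB/N the regions did not overlap, and within TgR only replicate 4 of the PFC reached the lowest library of the hippocampus. The mean difference was 0.21 on the log2 scale (unadjusted p = 0.00429, two-sided exact permutation test of region within genotype over 700 assignments). Adjusted over the 12 ratio tests it missed the threshold (adjusted p = 0.0514), and with a library left out it passed only without TgR hippocampus replicate 2 (adjusted p = 0.04, up to 0.411 without others, exact permutation tests). Without FVB/N hippocampus replicate 3, where the ratio was 170.3, the difference fell to 0.13. The guide also has reads from mir-181a-2, so this ratio is not that of a single hairpin. The ratio of the same guide to the passenger of mir-181a-2, miR-181a-5p/miR-181a-2-3p, differed between regions by 0.07 on the log2 scale (0.16 in FVB/N, -0.02 in TgR) and did not pass (adjusted p = 0.857, exact permutation test).

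For mir-181c the ratio of guide to passenger was far smaller, with medians of 5.48 to 7.19 by group, and it did not pass for region or genotype (adjusted p = 0.969 and 0.651, exact permutation tests). The ratio miR-181b-5p/miR-181a-5p, between guides of the same hairpin clusters, had medians of 0.187 to 0.222, and its difference between regions of 0.07 on the log2 scale did not pass (adjusted p = 0.651, exact permutation test). The ratio miR-181c-5p/miR-181d-5p, between the guides of the chromosome 8 cluster, had a median of 0.238 in the TgR hippocampus and 0.179 in that of FVB/N mice, where all TgR libraries were higher. In the PFC the medians were 0.203 in TgR and 0.216 in FVB/N, and the groups overlapped. The difference between genotypes was 0.57 on the log2 scale in the hippocampus and 0.10 in the PFC, and their mean of 0.33 did not pass (adjusted p = 0.449, exact permutation test).

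**Figure D5:**
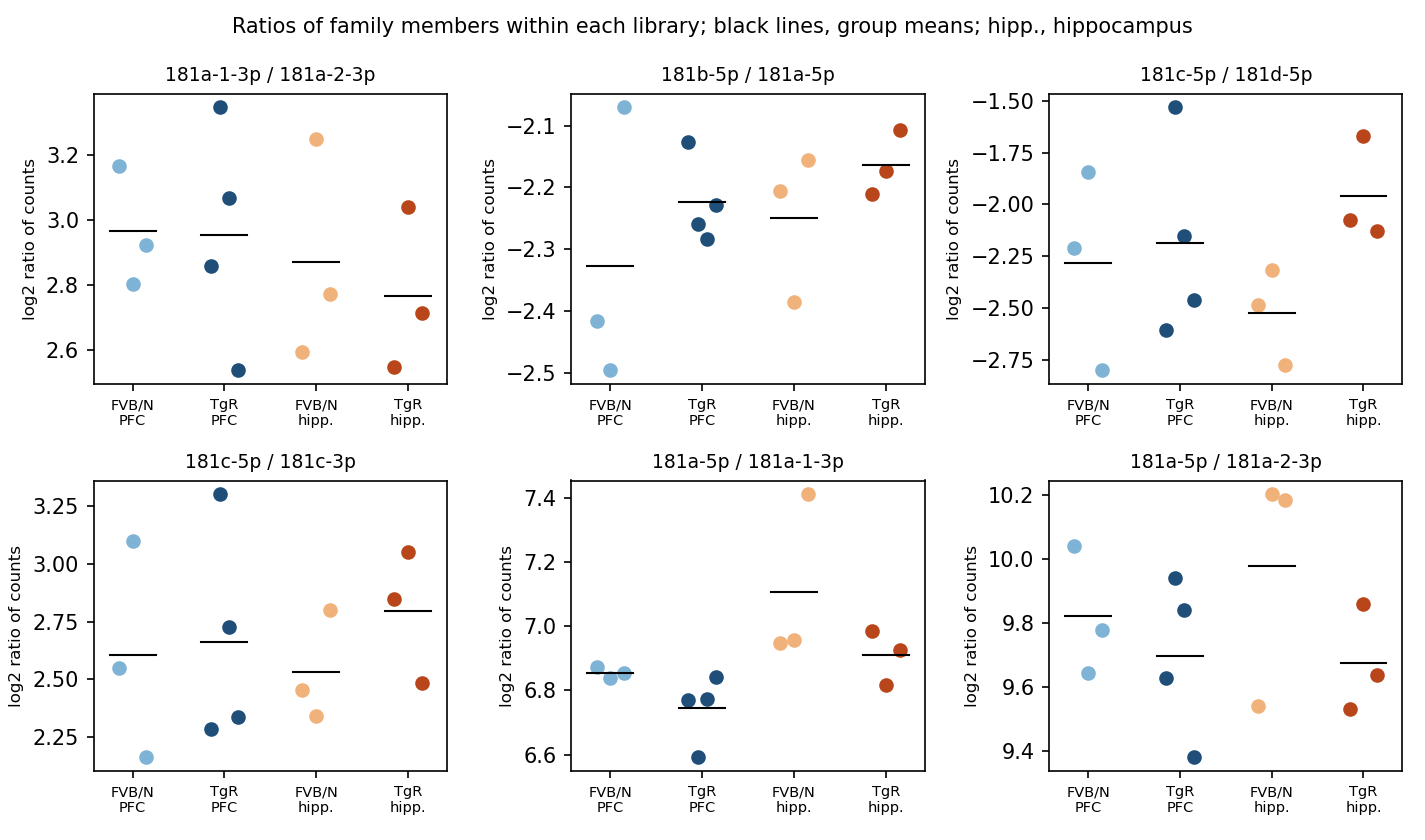
Log2 ratio of counts of a pair of family members in each library, by group, with group means as black lines, for the 6 ratios tested. The vertical axes do not start at 0; miR-181a-5p/miR-181a-1-3p runs from 6.59 to 7.41, and the other ratios overlap between regions within each genotype.

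Profiles over the 13 libraries were compared by the root mean square difference of log2 CPM, each miRNA centred on its own mean, with the 388 other miRNAs of at least 10 CPM. miR-181b-5p was the nearest of all to miR-181a-5p (0.122, where the median over all was 0.338). The nearest miRNAs outside the family were miR-125b-2-3p (0.127), miR-1983 (0.142) and miR-24-1-5p (0.145). For miR-181b-5p they were miR-24-1-5p (0.107), let-7i-5p (0.113) and miR-330-3p (0.131), and miR-181a-5p had rank 3 (0.122). let-7i-5p, for example, averaged 18044 and 17973 CPM in the FVB/N and TgR hippocampus and 14739 and 15558 CPM in the PFC. miR-181d-5p was nearest to miR-125b-2-3p (0.125), miR-329-5p (0.139) and miR-532-5p (0.146), with miR-181a-5p next (0.148, rank 4). miR-125b-2-3p averaged 362 CPM in the FVB/N hippocampus and 243 to 272 CPM in the other groups.

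miR-181c-5p had another profile. Its nearest miRNAs were miR-33-5p (0.171), miR-151-5p (0.173) and miR-7a-1-3p (0.192), and its nearest family member, miR-181a-1-3p, had rank 37 (0.300). Its own passenger miR-181c-3p had rank 54 (0.338) and its neighbour miR-181d-5p rank 93 (0.381). All points of these profiles share the 13 libraries and their scaling, so the distances describe these libraries and carry no test.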

How the data were processed

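Small RNA libraries (NEBNext) of 13 samples were sequenced on a NextSeq, checked with FastQC and aligned to miRBase with miRExpress under default parameters. The authors deposited, for each library, raw counts of reads per pair of hairpin and mature miRNA, without normalization, and used DESeq2 themselves. Pairs not listed were taken as 0. Where hairpins share a mature miRNA, as for 71 of them, the row with the largest total was kept. Members and marker lists were chosen with earlier results of these data known. Named were all members and marker miRNAs past the threshold, and for each 5p member the 3 non-members with the nearest profile.

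Genotype was tested within each region, and regions and the interaction over all 13 libraries in 4 groups, with edgeR 4.0.16 in R 4.3.3 (TMM, filterByExpr with a minimum of 10 counts, quasi-likelihood F test, Benjamini-Hochberg adjustment over all miRNAs, threshold 0.05). Ratios with a mean of at least 10 counts for both members were tested by exact permutation within strata (smallest p 1/700). Scripts were tested on simulated data. The labels number libraries within a group but do not tie the regions to the same mice and name no batch. The p-values measure the spread between these samples. Positions and sequences were matched by name for all 10 members. Alternatives were DESeq2 1.42.0, its size factors, library size only, no filter, pairs as deposited, sums over hairpins, other sample sets, an adjusted p of 0.1, a replicate block and each library left out.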

Additional observations from a re-analysis of the deposited data

How the results depend on the processing

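The calls of miR-181a-5p, miR-181b-5p and miR-181b-1-3p in the mean of both genotypes held under all 20 alternatives, with 3 members called in each. For genotype in the hippocampus, genotype in the PFC and their difference, 0 members were called under every alternative, including a threshold of 0.1 for the difference. Counts of members within a genotype were less stable, and the cause was not tested. In TgR 1 member was called with DESeq2, with its size factors, with no filter, with pairs as deposited, with sums over hairpins and with TgR libraries only, 0 with the replicate block, and 0 to 1 with a library left out. With library size only 3 were called in TgR, among them miR-181a-5p (adjusted p = 0.0297, edgeR). In FVB/N 1 was called with library size only and with pairs as deposited, 0 with no filter and with FVB/N libraries only, and 0 to 2 with a library left out. Of the ratios 0 to 1 passed between regions with a library left out. Over all miRNAs, genotype in the hippocampus gave 30 calls, 49 with DESeq2, 64 with no filter and 2 to 18 with a library left out (2 without FVB/N hippocampus replicate 3). The difference of the genotype effect between regions gave 3, 10 with DESeq2, 16 with no filter, 6 at the threshold of 0.1 and 2 to 8 with a library left out. Regions within FVB/N gave 49, 22 with FVB/N libraries only and 24 to 50 with a library left out, and within TgR 66, with 29 to 75. Library size only moved the median log2 fold change of all miRNAs from 0.05 to 0.13 for regions within TgR and from 0.03 to 0.15 for the difference.

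The labels do not say whether libraries of both regions with the same number share a mouse. Deviations of such libraries correlated between regions at 0.07 to 0.21 in FVB/N and at -0.17 to 0.43 in TgR. Correlations of this size cannot decide whether a mouse was shared, and the numbering of the FVB/N PFC libraries is itself uncertain. With the replicate block no other call of a member changed than in TgR, where miR-181b-1-3p (1.17, adjusted p = 0.0502) and miR-181b-5p (0.40, adjusted p = 0.0765, both edgeR) missed the threshold. Calls over all miRNAs fell to 17 for genotype in the hippocampus and rose to 10 for the difference of the genotype effect between regions. With the block, signs turned for genotype in the PFC at miR-181a-2-3p (-0.12), miR-181b-5p (-0.039) and miR-181d-5p (-0.0013), and for the ratios miR-181a-1-3p/miR-181a-2-3p by genotype (0.011) and miR-181c-5p/miR-181c-3p by region (-0.024).

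The other sign changes were of values near 0, none of them called. In the PFC by genotype they were miR-181b-5p (-0.0031 with DESeq2, -0.023 with library size only, -0.012 with no filter), miR-181a-1-3p (-0.017 with library size only, -0.003 with no filter) and miR-181d-5p (-0.0045 with library size only). In the hippocampus by genotype, library size only turned miR-181a-1-3p (0.042) and miR-181c-3p (0.041). Between regions in TgR, miR-181d-5p turned with DESeq2 (-0.019), its size factors (-0.0195), pairs as deposited (-0.026) and sums over hairpins (-0.056), and in FVB/N miR-181d-3p with library size only (-4e-04) and no filter (-6e-04). For the difference, miR-181a-1-3p turned with library size only (0.059) and no filter (0.016), miR-181c-3p with library size only (0.013), and miR-181a-2-3p with pairs as deposited (-0.0299) and sums over hairpins (-0.028).

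With a library left out, log2 fold changes spanned 0 for miR-181a-1-3p (-0.039 to 0.0496), miR-181a-2-3p (-0.12 to 0.18), miR-181b-1-3p (-0.44 to 0.059), miR-181b-5p (-0.0498 to 0.085), miR-181c-5p (-0.15 to 0.38), miR-181d-3p (-0.49 to 0.19) and miR-181d-5p (-0.0079 to 0.047) for genotype in the PFC. They also spanned 0 for miR-181a-1-3p (-0.19 to 0.069), miR-181a-2-3p (-0.033 to 0.26) and miR-181c-3p (-0.23 to 0.17) for genotype in the hippocampus, for miR-181c-3p (-0.036 to 0.38), miR-181c-5p (-0.14 to 0.29) and miR-181d-3p (-0.28 to 0.26) between regions in FVB/N and for miR-181d-5p (-0.091 to 0.052) between regions in TgR. The same held for miR-181a-1-3p (-0.19 to 0.081), miR-181a-2-3p (-0.11 to 0.20), miR-181c-3p (-0.28 to 0.14) and miR-181c-5p (-0.093 to 0.41) for the difference of the genotypes between regions. Log2 ratios that spanned 0 were miR-181a-1-3p/miR-181a-2-3p by genotype (-0.13 to 0.036), miR-181c-5p/miR-181c-3p by region (-0.0804 to 0.15) and miR-181c-5p/miR-181d-5p by region (-0.13 to 0.10). Depth limits miR-181d-3p and miR-181b-2-3p, with 1 to 13 counts per library, and the spread between libraries limits miR-181c-5p. The source of that spread was not tested.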
